A study of Oryza sativa Japonica Group with 6 samples.

Results

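The auxin genes of rice were followed in seedling roots after 1 h without nitrogen. They were taken by name: every gene whose symbol or synonym in the RefSeq gene table is IAA, ARF, SAUR, GH3, PIN or AUX with a number, with or without the Os prefix, and in addition DAO. Of 71 genes with such a name, 59 had a probe set on the array tied to them alone, and these 59 are described here out of 17905 genes represented in all. They are 26 Aux/IAA genes, 17 ARF genes, 9 GH3 genes, 5 PIN genes, SAUR39 and DAO. The other 12 genes, 6 ARF, 4 PIN and 2 Aux/IAA genes, had no such probe set and no value here. No AUX gene was named in the table, and SAUR39 was the only SAUR gene with that name, so the SAUR family is hardly covered. The tables pair gene identifiers with names and give no descriptions, so the families rest on names alone. Rice Aux/IAA, ARF and PIN genes carry more than 1 numbering. ARF1 is also called ARF16, IAA13 also IAA1, and PIN9 also PIN5, and a single name was kept for each gene here.

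The roots came from seedlings of the rice cultivar TNG67 (japonica) at an age of 10 days, and the labels name no transgene or mutation. Seedlings grown in complete hydroponic solution with ammonium nitrate (+N, 3 arrays) were compared with seedlings held for 1 h in the same solution without a nitrogen source (−N, 3 arrays). A label has both groups moved to new solution for that hour. A GeneChip Rice Genome Array was hybridised with the total root RNA of each sample. It is a single-colour array that gives 1 intensity, in arbitrary units, for each probe set. The labels call the replicates biological, but do not say whether they came from separate cultures or how many plants were pooled. For +N replicate 3 a label gives 0.5 h in place of 1 h, and −N replicates 1 and 2 are marked as a reanalysis.

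Auxin (indole-3-acetic acid, IAA) is the hormone that patterns the root tip and sets the formation of lateral and crown roots. In its response pathway, auxin brings about the breakdown of Aux/IAA proteins, which otherwise repress transcription by binding to ARF proteins, the DNA-binding auxin response factors. Many Aux/IAA, GH3 and SAUR genes are themselves early auxin-responsive genes. GH3 enzymes attach amino acids to auxin or to jasmonic acid, DAO oxidises auxin to an inactive form, and PIN proteins carry auxin out of cells or across internal membranes.

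Of the 59 auxin genes, 37 (62.7%) had a log2 fold change within 0.25 of 0, beside 70.1% of all genes, and 5 were at least 2-fold apart by geometric means. PIN9 and GH3.8 were at least 2-fold higher in −N. SAUR39, DAO and GH3.2 were at least 2-fold lower. These 2 and 3 of 59 genes (3.39% and 5.08%) stand beside 0.765% and 1.40% of all 17905 genes. The shares cannot show an excess, because DAO was added singly and the members were chosen with earlier results known. Apart from PIN9, SAUR39 and DAO, only GH3.8 was at least 2-fold higher and only GH3.2 at least 2-fold lower. The same limit applies to the shares of called and of non-overlapping genes below. PIN9, SAUR39 and DAO were among the genes that the study picked from the same arrays with the same fold cutoff. Their direction on these arrays is therefore not independent evidence. The study also measured its picked genes by quantitative RT-PCR, which it describes as an independent experiment. PIN9 stayed in its list of induced genes, and SAUR39 and DAO in that of repressed genes. Those measurements are not part of the data used here.

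None of the 59 genes passed an adjusted p of 0.05 in limma without a block, the reported test, which called 0.0223% of all genes higher and 0.0838% lower. Before adjustment, a p under 0.05 was reached by 2 auxin genes that were higher (PIN9, GH3.8) and 4 that were lower (SAUR39, DAO, GH3.2 and IAA6). Of all genes, 2.17% and 3.08% were called in these directions. Arrays of equal replicate number deviated together, and with that number as a block limma called 1 auxin gene higher (PIN9) and 2 lower (DAO and GH3.2), beside 0.212% and 0.408% of all genes.

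DAO (LOC4336150, chromosome 4) encodes an enzyme that removes active auxin from the cell's pool by oxidising it. Its intensity was 979, 1572 and 949 in +N replicates 1, 2 and 3 and 421, 484 and 364 in −N replicates 1, 2 and 3. All −N arrays lay below all +N arrays, and the −N arrays were closer to each other than the +N arrays were. The mean intensities were 1167 in +N and 423 in −N, with SDs of 351 and 60.2 over 3 arrays each. The log2 fold change, here always the mean log2 intensity of −N minus that of +N, was −1.43 (SE 0.26; limma adjusted p = 0.235). With the replicate block the SE was 0.13 and DAO fell with an adjusted p of 0.0311. The pairs of equal replicate number differed by −1.22, −1.70 and −1.38 on the log2 scale.

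GH3.2 (LOC4326893, chromosome 1) was the brightest of the 9 GH3 genes and belongs to the group of GH3 genes whose rice enzymes conjugate auxin to amino acids. It had an intensity of 1495, 2813 and 2642 in +N and of 696, 1398 and 977 in −N. Every −N array was below every +N array, but −N replicate 2 came close to +N replicate 1, and the replicate 1 array was the dimmest in each treatment. The +N mean was 2317 (SD 717) and the −N mean 1024 (SD 354), 3 arrays each. Its log2 fold change was −1.18 (SE 0.35; limma adjusted p = 0.568). Within the pairs the difference was more even, at −1.10, −1.01 and −1.43. With the replicate block GH3.2 fell with an SE of 0.12 and an adjusted p of 0.0392. Without −N replicate 1 its log2 fold change was −0.93, which is under 2-fold. It lost the call of the blocked fit when any pair was left out. DAO and PIN9 lost it when pair 2 or pair 3 was left out and not without pair 1. Such fits rest on the remaining pairs alone, which limits their precision.

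GH3.8 (LOC4343785, chromosome 7) encodes another auxin-amido synthetase and differed in the other direction. Its intensity was 230, 330 and 224 in +N and 264, 825 and 679 in −N. The groups overlapped, since −N replicate 1 lay below +N replicate 2, while −N replicates 2 and 3 were well above every other array. The 3 +N arrays averaged 261 (SD 59.8) and the 3 −N arrays 589 (SD 291), and the log2 fold change came to 1.04 (SE 0.43; adjusted p = 0.904 in limma and 0.148 with the replicate block). The 3 pairs gave 0.20, 1.32 and 1.60. Leaving out single arrays moved the value between 0.72, without −N replicate 2, and 1.54, without −N replicate 1. It was under 2-fold without +N replicate 1, +N replicate 3, −N replicate 2 or −N replicate 3. Without pair 1, the pair with the smallest difference, the blocked fit put GH3.8 past the threshold at 1.46 (SE 0.13, adjusted p = 0.0410). That fit rests on pairs 2 and 3 alone.

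PIN9 (LOC4327533, chromosome 1) encodes an auxin efflux carrier of a type found in monocots. It was a gene of low intensity, at 36.5, 52.2 and 48.7 in +N and 78.3, 134 and 140 in −N. All −N arrays were above all +N arrays, and replicate 1 was the lowest in both treatments. Over 3 arrays each, the mean was 45.8 with an SD of 8.27 in +N and 118 with an SD of 34.1 in −N. The log2 difference was 1.33 (SE 0.29; limma adjusted p = 0.382). With the replicate block PIN9 rose with an SE of 0.12 and an adjusted p of 0.0311, and the pairs differed by 1.10, 1.36 and 1.53.

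SAUR39 (LOC9271092, chromosome 9), a small auxin-up RNA gene whose product has been described in rice as a negative regulator of auxin synthesis and transport, had the largest difference of the 59 genes. It was at 390, 168 and 291 in +N and at 62.9, 79.6 and 77.1 in −N. The groups did not overlap, and the +N arrays were widely spread while the −N arrays were close together. In +N the 3 arrays had a mean of 283 and an SD of 111, in −N a mean of 73.2 and an SD of 8.99. The −N level was −1.88 from that of +N on the log2 scale (SE 0.32; limma adjusted p = 0.197). The pairs differed by −2.63, −1.08 and −1.92. This spread between pairs left an SE of 0.29 and an adjusted p of 0.0827 with the replicate block, so that the largest change was not among the genes called.

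**Figure D1:**
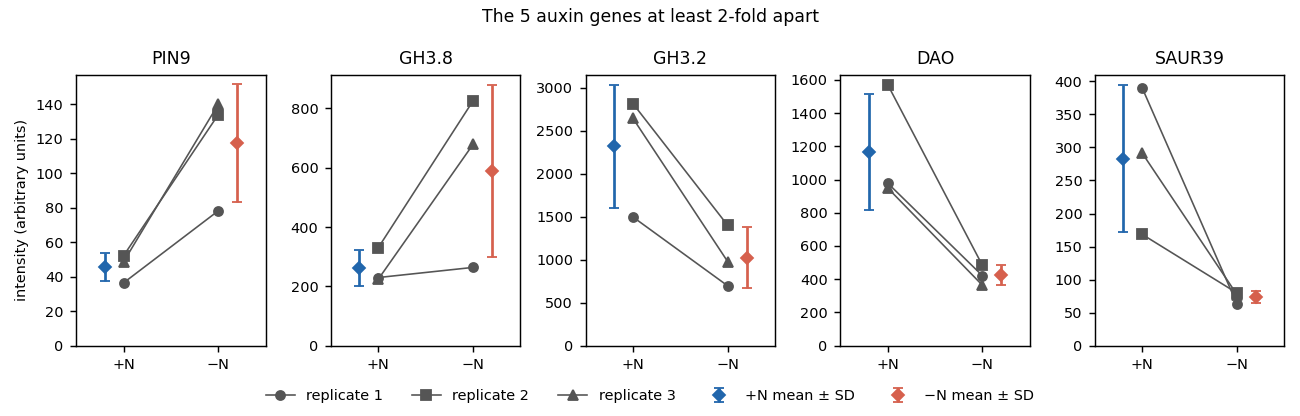
Intensity (arbitrary units, linear axis from 0) of the 5 auxin genes at least 2-fold apart, in +N and −N; lines join arrays of equal replicate number and diamonds with bars are means ± SD over 3 arrays. GH3.8 is the only one of the 5 whose groups overlap, because −N replicate 1 (264) lies under +N replicate 2 (330).

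A count of genes with no overlap between the treatments gave a wider list. In 4 auxin genes (PIN9, ARF3, ARF10 and ARF22) all −N arrays were above all +N arrays, and in 7 (SAUR39, DAO, GH3.2, IAA1, IAA4, IAA6 and PIN3A) all were below, that is 6.78% and 11.9% of the 59. Over all genes these shares were 3.98% and 5.32%. Several of these separations were small in size, and 1 of them, IAA1, amounted to −0.25 on the log2 scale.

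The remaining 7 GH3 genes had log2 fold changes between −0.01 and 0.38, and none had separate groups. GH3.4 was at 41.4, 67.1 and 55.2 in +N and 52.0, 82.7 and 78.4 in −N. Each pair was higher in −N and the groups overlapped (log2 fold change 0.38, SE 0.28; limma adjusted p = 0.142 with the replicate block). GH3.7 was similar, at 0.35 (SE 0.30), and also higher in every pair. Its dimmer probe sets, at means of 19.6 and 6.06, gave −0.12 and 0.21. Rice GH3.5 is the jasmonate-conjugating enzyme JAR1, so that it belongs to the family by sequence and not to auxin metabolism. It had 357, 492 and 472 in +N and 347, 449 and 806 in −N, where replicate 3 alone was above the +N arrays. GH3.6, GH3.1, GH3.11 and GH3.9 were between −0.01 and 0.09, and the last 3 were dim, with mean intensities from 14.4 to 29.8. The family thus held a gene at least 2-fold higher and another at least 2-fold lower, around a median of 0.09.

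Of the other PIN genes, none had a higher level in all 3 pairs, and 3 were lower in all 3. With PIN9 counted, 1 of the 5 PIN genes (20.0%) was higher in all 3 pairs and 3 (60.0%) were lower. Over all genes these shares were 26.5% and 17.5%. PIN5A, an auxin carrier of the short type, known in Arabidopsis from the endoplasmic reticulum, was at 105, 156 and 74.6 in +N and at 86.5, 70.4 and 57.1 in −N. Its groups overlapped through +N replicate 3, and its log2 fold change of −0.60 (SE 0.31) was carried mostly by pair 2, at −1.15, with −0.28 and −0.39 in the others. PIN3A, also named PIN10A, had a smaller but even difference, from 69.7, 69.3 and 67.7 in +N to 62.2, 58.9 and 56.4 in −N. All of its −N arrays lay below the +N arrays, by −0.22 on the log2 scale (SE 0.19; adjusted p = 0.263 with the replicate block). Its dimmer second probe set, at a mean of 24.8, gave 0.01.

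PIN2, which in roots carries auxin shootward from the tip through the epidermis, was the brightest PIN gene and had the widest spread between replicates in the family. It was at 67.4, 315 and 247 in +N and at 80.2, 269 and 261 in −N. Both replicate 1 arrays were far below the other 4 arrays, and the treatments differed by 0.04 (SE 0.67). PIN5C was close to the lower end of the array, with a mean over the 6 arrays of 8.96 and a log2 fold change of −0.37.

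The Aux/IAA family was the largest and on the whole the brightest. Its median intensity was 444, against 223 over all genes, and 10 of its 26 genes had a mean over 1000. Intensities of different probe sets do not rank transcripts, since each probe set binds with its own efficiency. IAA13 had the highest intensity of the 59 genes, at 8519, 10091 and 9801 in +N and 9308, 9240 and 10058 in −N. The groups overlapped almost fully, with a log2 fold change of 0.01 (SE 0.19). IAA3 and IAA17, the next in order, gave 0.11 and 0.07.

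Most genes of this repressor family had small differences. The median log2 fold change was 0.04 and the range −0.51 to 0.53, and 21 of the 26 genes (80.8%) lay within 0.25 of 0, against 70.1% of all genes. In direction the genes were mixed, with 14 above 0 and 12 below. In all 3 pairs, 5 were higher (IAA3, IAA7, IAA12, IAA23 and IAA30) and 6 were lower (IAA1, IAA4, IAA5, IAA6, IAA9 and IAA19). These shares of 19.2% and 23.1% are near those of all genes, 26.5% and 17.5%.

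IAA6 had the largest decrease of the family and the lowest unadjusted p. It was at 627, 629 and 683 in +N and at 510, 439 and 414 in −N, so that the +N arrays were close together and the −N arrays all below them. Its mean was 646 (SD 31.4) in +N and 454 (SD 49.5) in −N, 3 arrays each, and the log2 difference −0.51 (SE 0.20; adjusted p = 0.809 in limma and 0.124 with the replicate block). IAA9 was at 108, 215 and 165 in +N and 90.6, 123 and 122 in −N (log2 fold change −0.50, SE 0.30). Its groups overlapped because +N replicate 1 was lower than 2 of the −N arrays.

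IAA4, also listed as IAA20, was measured by 3 probe sets. The one used gave 67.2, 87.4 and 65.5 in +N and 57.9, 62.7 and 53.0 in −N, without overlap. Its log2 fold change was −0.33 (SE 0.21), and those of the other probe sets were −0.46 and −0.31. In the other direction, IAA7 was at 102, 231 and 159 in +N and at 182, 302 and 204 in −N. Its groups overlapped, but each pair was higher in −N, by 0.84, 0.39 and 0.36 (mean 0.53, SE 0.35, adjusted p = 0.137 with the replicate block). IAA8 came next at 0.40 with intensities of only 9.48 to 17.1 over the 6 arrays, and its dimmer second probe set, at a mean of 6.62, gave −0.095. IAA12 followed at 0.24, with means of 1545 (SD 331) in +N and 1804 (SD 255) in −N.

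**Figure D2:**
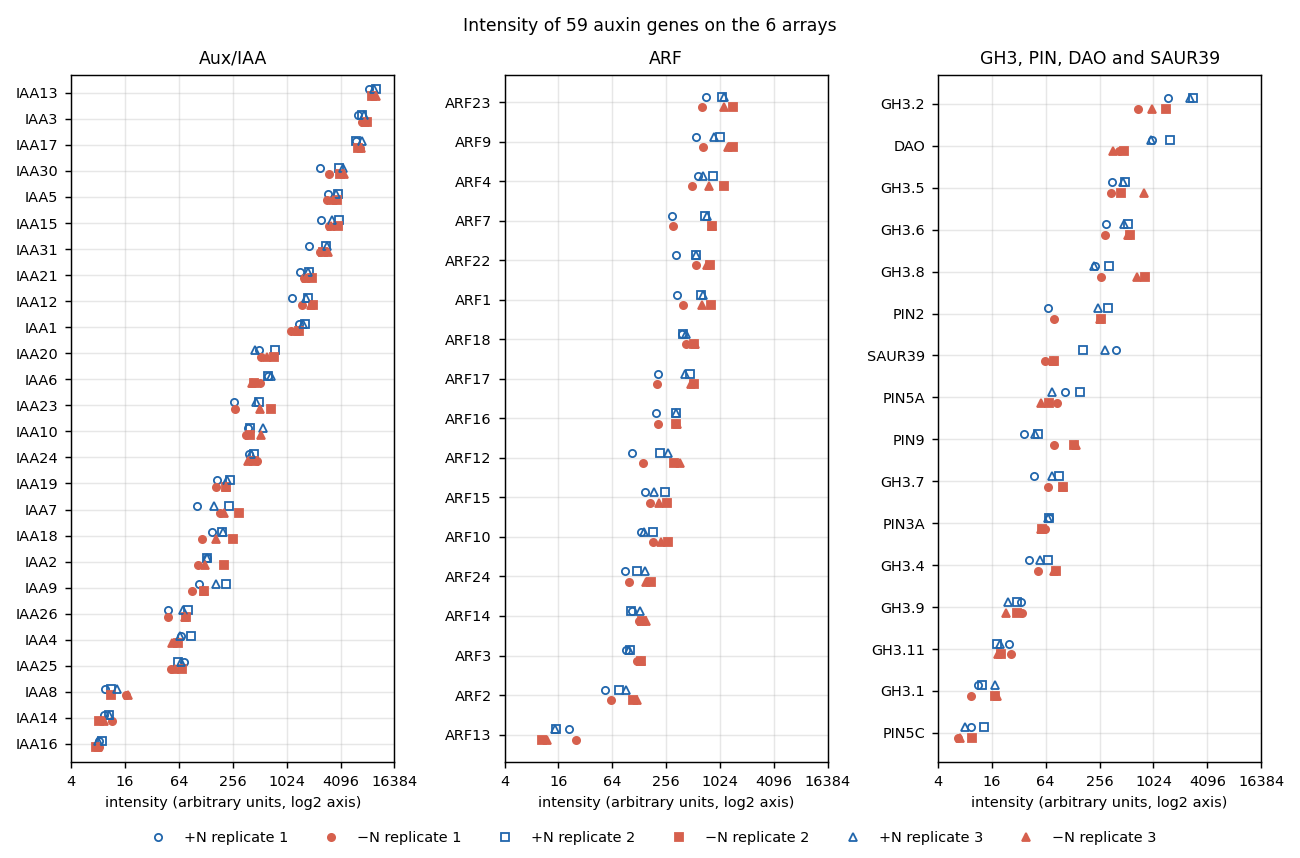
Intensity of each of the 59 auxin genes on the 6 arrays (log2 axis, arbitrary units), ordered by mean within the Aux/IAA genes, the ARF genes and the others; open symbols are +N, filled symbols −N and the shape gives the replicate number. Most genes have filled and open symbols of equal shape close together, and IAA13 is the brightest.

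Nearly all ARF genes had a higher mean log2 intensity in −N, although only ARF3, ARF10 and ARF22 had groups without overlap. Of 17 ARF genes, 16 had a log2 fold change above 0, where 55.7% of all genes did, but without +N replicate 1 or −N replicate 2 this count was 10. Over the 59 auxin genes 39 were above 0. The ARF median was 0.25, with quartiles of 0.13 and 0.42, against 0.03 for all genes and 0.04 for the Aux/IAA genes. The differences were small, up to 1.48-fold for ARF22, and no ARF gene passed the threshold in either fit.

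By pairs, 12 of the 17 ARF genes were higher in −N in all 3 pairs and none was lower in all 3. For the 59 auxin genes these counts were 21 and 12, or 35.6% and 20.3%, beside 26.5% and 17.5% of all genes. The ARF median was 0.24 in pair 1, 0.41 in pair 2 and 0.23 in pair 3. Over all genes the pair medians were −0.0039, 0.05 and 0.06.

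**Figure D3:**
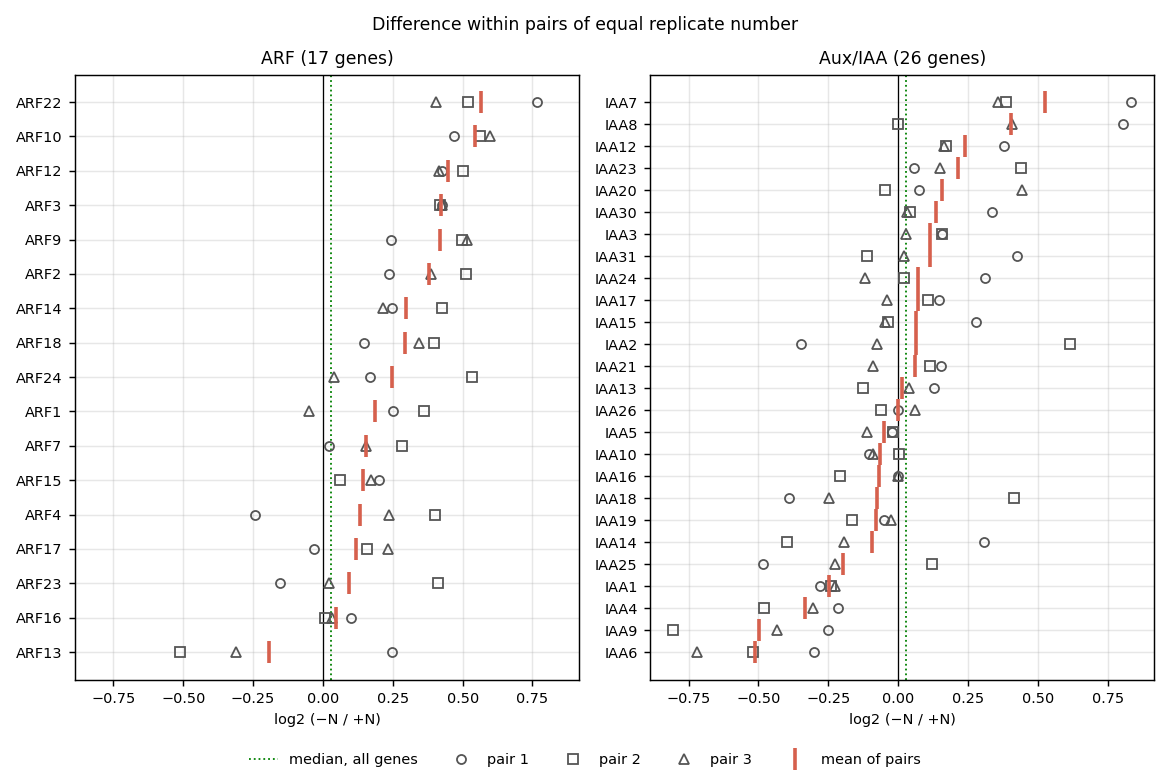
Log2 ratio of −N over +N within pairs of equal replicate number for the 17 ARF and 26 Aux/IAA genes (circles pair 1, squares pair 2, triangles pair 3, bars the mean of the pairs, dotted line the median of all genes at 0.03). Of the ARF genes 16 have a mean above 0 (10 without +N replicate 1 or −N replicate 2), whereas 14 Aux/IAA genes lie above 0 and 12 below.

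ARF22 had the largest increase of the family, with 326, 551 and 549 in +N and 554, 790 and 727 in −N. Its groups were just apart, as −N replicate 1 was a little above +N replicate 2, which left 0.56 on the log2 scale (SE 0.28; adjusted p = 0.109 with the replicate block). ARF10 was at 133, 183 and 146 in +N and at 184, 270 and 221 in −N, again barely apart (0.54, SE 0.24, adjusted p = 0.971 in limma and 0.0909 with the block). It had the lowest p of the family.

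ARF3 was the most even ARF gene across pairs. It was at 90.8, 101 and 98.6 in +N and at 122, 134 and 132 in −N, with the groups well apart. Its mean was 96.6 (SD 5.12) in +N and 130 (SD 6.74) in −N, and the pairs gave 0.42, 0.42 and 0.43. The SE was 0.19 (adjusted p = 0.985 in limma and 0.116 with the block). ARF12 and ARF9 were as large, at 0.45 and 0.42, but overlapped between the treatments.

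ARF12 shows how the replicates spread. It was at 106, 219 and 271 in +N and at 143, 311 and 361 in −N, so that its replicate 1 arrays were far below the others in both treatments, while each pair was higher in −N by 0.43, 0.50 and 0.42. The brightest ARF gene, ARF23, was at 719, 1069 and 1129 in +N and at 647, 1423 and 1146 in −N. Its pairs disagreed in sign, at −0.15, 0.41 and 0.02. The single ARF gene below 0 was ARF13, at −0.19, which was also the dimmest of the family with 10.6 to 25.2.

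The arrays of replicate 1 were often the lowest. In 38 of the 59 genes replicate 1 was the lowest array in +N and also in −N (15 of the ARF genes, 15 of the Aux/IAA genes, 6 of the GH3 genes and 2 of the PIN genes). Of all genes 59.9% had this pattern. ARF7 was at 299 in +N and 304 in −N replicate 1, but between 692 and 842 on the other arrays. Leaving out a single array shifted the median of all genes and that of the ARF genes. The median over all genes was −0.09 without +N replicate 1, −0.06 without −N replicate 2 and 0.17 without −N replicate 1, and the ARF median was 0.05, 0.08 and 0.47 in these fits. Above the median of all genes, the ARF median was 0.14 without +N replicate 1, 0.14 without −N replicate 2 and 0.30 without −N replicate 1. The count of ARF genes above 0 dropped to 10 of 17 without +N replicate 1 and without −N replicate 2, where 34.7% and 39.7% of all genes were above 0. It was 13 without −N replicate 3, beside 46.9% of all genes. Without both replicate 1 arrays it was 16, with a median of 0.32.

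**Figure D4:**
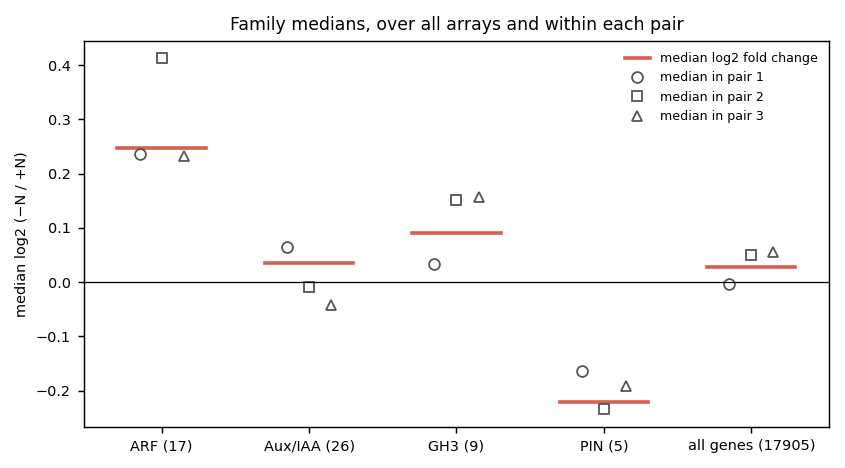
Median log2 ratio of −N over +N by family (bars: all 6 arrays; circles, squares and triangles: pairs 1, 2 and 3), with the number of genes in parentheses. The ARF median is above that of all genes in each of the 3 pairs and the PIN median, from 5 genes, below it.

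Further genes of the pathway, outside the named families, were read from a list made by role. It held 16 measured genes. A further 6 matched by name but were left out as having another role, a judgement made from synonyms without gene descriptions. None of the 16 passed the threshold in either fit, and none was at least 2-fold apart. The list rests on names and does not cover the pathway fully. The study lists a homolog of an auxin glucosyltransferase and an IAMT1-like auxin methyltransferase as repressed by −N, and neither is among the 16. It also lists SAUR19, a SAUR36-like gene and a gene of an auxin-induced protein as induced by −N. These are not among the genes described here either, so SAUR39 does not stand for the SAUR genes. Of the 16, 11 (68.8%) had a log2 fold change above 0, beside 55.7% of all genes, with a median of 0.20 beside 0.03. In all 3 pairs, 6 (37.5%) were higher and 1 (6.25%) was lower, beside 26.5% and 17.5% of all genes. No auxin receptor gene of the TIR1/AFB type was matched by name.

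Among the synthesis genes, FIB, which encodes the aminotransferase of the first step from tryptophan, was at 190, 600 and 557 in +N and 346, 871 and 670 in −N. Its log2 fold change was 0.55 (SE 0.51; limma adjusted p = 0.138 with the replicate block), with overlapping groups and each pair higher. YUCCA1, the flavin monooxygenase of the next step, was at 0.24 and dim, with 35.2 to 48.2 over the 6 arrays. The largest differences were in WOX11 and IAMT1. WOX11, a homeobox regulator of crown root growth, was at 50.5, 57.5 and 33.2 in +N and at 62.0, 186 and 63.4 in −N, where replicate 2 alone was high. The groups were apart, by 0.97 on average on the log2 scale (SE 0.45; adjusted p = 0.150 with the block). IAMT1, which methylates auxin, was at 22.4, 37.7 and 39.9 in +N and at 31.9, 93.3 and 62.2 in −N, overlapping through −N replicate 1 (0.82, SE 0.42, adjusted p = 0.118 with the block). It is not the IAMT1-like gene that the study lists as repressed by −N.

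The ILR1-like hydrolases free auxin from its amino acid conjugates and thus act against the GH3 enzymes. ILL3, the brightest of the 7 measured, was at 0.58 (SE 0.42; limma adjusted p = 0.172 with the block) and higher in all pairs. ILL7 was at 708, 780 and 658 in +N and at 470, 641 and 505 in −N, with no overlap (−0.42, SE 0.21, adjusted p = 0.139 with the block). The protein kinase gene PID, which acts on PIN proteins, gave 0.04, and the corepressor genes TPR2 and TPR3 gave −0.03 and 0.06. The ABC transporter gene mdr17 was at 0.53 (SE 0.60), with overlapping groups. Each of its pairs was higher in −N, by 0.50, 0.37 and 0.71 (limma adjusted p = 0.112 with the replicate block).

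Of 8 root markers, 5 were matched to a probe set. The silicon transporter genes LSI1 and LSI2 were at 11842 to 16384 and at 3553 to 6669. The endodermal regulator genes SHR1 and SCR1 were at 99.8 to 230 and at 13.7 to 28.2. The ammonium transporter gene AMT1;2 was at 3249 to 4770 in +N and 619 to 1887 in −N. Of the 7 green shoot markers, 2 were matched. RBCS, of the Rubisco small subunit, was at 1229 to 3407 in +N and 587 to 935 in −N. CAB2R, of a light-harvesting protein, was at 10785 to 14903 in +N and 5202 to 9656 in −N. Their summed intensity was 12015 to 18310 in +N and 6048 to 10592 in −N. That of the 5 root markers was 20107 to 27018 in +N and 17666 to 20647 in −N. Both green shoot markers were lower in every −N array than in every +N array, as were AMT1;2, SAUR39, DAO and GH3.2. A part of the marker differences in those of the auxin genes was not tested. In RNA of a whole root, fewer cells with a transcript and less transcript per cell cannot be told apart.

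The probe sets set a limit to some of these values. For 53 of the 59 genes the name of the probe set marks it as specific to a single transcript. Those of GH3.11, IAA23 and IAA4 are of the kind that can bind other transcripts, that of IAA17 is shared by several transcripts, and those of ARF12 and ARF23 by transcripts of the same gene. IAA30 and IAA31 are next to each other on chromosome 12 in the RefSeq order. Both had a high intensity, with means over the 6 arrays of 3698 and 2572, and log2 fold changes of 0.14 and 0.11. The 59 genes lay on all 12 chromosomes, with 15 on chromosome 1 and 10 on chromosome 5.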

How the data were processed

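The authors deposited linear intensities, 1 per probe set and array, for 57381 probe sets. GCOS and RMA are named in the submitters' processing notes, with the steps and versions not given in the sources used here. Array medians were 33.3 to 35.2. The upper quartile was 137 in +N replicate 1 and 131 in −N replicate 1, and 167 to 180 on the other arrays. The intensities were taken to log2 without a pseudocount, 187 control probe sets were left out, and of the probe sets of a gene the one with the highest mean log2 value was kept (17905 genes), with no filter on dim genes. Names came from the platform annotation and from the RefSeq gene table of assembly ASM3414082v1, used without coordinates.

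−N was compared with +N in limma 3.58.1 (R 4.3.3), as a two-sided test with p-values adjusted by Benjamini-Hochberg over all genes (threshold 0.05). These p-values cover only the spread among these arrays, which may be technical, and 3 arrays per group limit the precision. Deviations from the group means correlated at 0.785, 0.664 and 0.653 between arrays of equal replicate number and at −0.547 to 0.0846 otherwise, so that equal numbers were taken as pairs on the evidence of the data alone. Named genes are PIN9, DAO, SAUR39, genes past the threshold in either fit, the largest changes each way overall and by family, the brightest of each family or role, and pathway genes at least 1.5-fold apart; further ones are examples chosen after their values were seen. The members and lists were chosen with earlier results of these data known. Code for the test was tried on simulated data. Alternatives were the replicate block, other scalings, a pseudocount, a filter on dim genes, averaged probe sets and arrays left out.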

Additional observations from a re-analysis of the deposited data

How the results depend on the processing

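With the replicate block, the counts over all genes rose from 4 to 38 higher and from 15 to 73 lower, and the paired fit called 1 auxin gene higher (PIN9, 1.33, adjusted p = 0.0311) and 2 lower (DAO, −1.43, adjusted p = 0.0311, and GH3.2, −1.18, adjusted p = 0.0392), where the fit without it called none. It changed no other call of an auxin gene. With the block and pair 1 left out it called 2 higher and 1 lower, and without pair 2 or pair 3 none. Without single arrays the counts over all genes were 0 to 10 higher and 0 to 14 lower, and 0 without both replicate 1 arrays, a choice made after seeing the data. Quantile normalization gave 2 higher and 22 lower. Auxin genes at least 2-fold higher were 1 to 2 without single arrays, and those at least 2-fold lower were 2 to 3. The 16 genes with the 8 largest differences each way kept their sign under the alternatives run. Smaller differences did not always, as the auxin genes above 0 went from 39 to 25 without +N replicate 1 and to 27 without −N replicate 2. Without single arrays the family medians were 0.048 to 0.47 (ARF), −0.11 to 0.094 (Aux/IAA), 0.090 to 0.40 (GH3) and −0.41 to −0.18 (PIN). Without both replicate 1 arrays the median was −0.042 for Aux/IAA and 0.27 for GH3. With dim genes left out it was 0.28 for GH3 and −0.092 for PIN, and for PIN it was −0.13 with 16 added and −0.11 with probe sets averaged. The cause was not tested. Intensities near the lower end of the arrays limit what IAA8, IAA14, IAA16, ARF13, GH3.1 and PIN5C can show.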

Other observations

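A few dim auxin genes had equal values on arrays of different treatment. IAA16 was listed at 8.25 in both replicate 1 arrays and at 7.99 in both replicate 3 arrays, IAA8 at 11.1 in both replicate 2 arrays, and IAA26 at 47.8 in both replicate 1 arrays.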
